A study of Mus musculus with 8 samples.

Results

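Zic genes encode transcription factors with zinc fingers that take part in patterning the neural tube, the neural crest and the body axes. Their zinc fingers are related to those of the Gli and Glis factors, the first of which carry the transcriptional response to Hedgehog signals. In pluripotent cells Zic2 is known as a regulator of the embryonic stem cell programme and of its exit toward primed states. The genes described here are the 4 members Zic1, Zic2, Zic4 and Zic5, which were chosen by the authors' comparison of genotypes in the deposited table and were found by name among its 19429 genes.

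The RNA came from mouse embryonic stem cells (mESCs) of the line LF2, kept in medium with LIF and serum, and both genotypes had a FLAG tag at the C-terminus of TET1. TET1 is a dioxygenase that oxidises 5-methylcytosine, and the D2018A change of an aspartate to alanine near its C-terminus weakens its binding to the O-GlcNAc transferase OGT. The 4 WT libraries came from lines 2 and 5 and the 4 D2018A libraries from lines 7 and 8, with 2 technical replicates of each line. Each line was grown from a single edited cell, so a line is 1 clone, and the methods describe a deletion away from the edited site that the WT cells had and the D2018A cells did not. The deposited table gives 1 mean per gene over all libraries of the authors' fit and no value of a single library. Its columns on the difference between genotypes are the authors' own comparison and were not used, so no level per genotype, no fold change and no test accompanies the genes below.

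To see how far the 4 genes can be told apart by 50-base reads, their coding sequences were compared first. Over the 6 pairs of genes, between 71.8% and 78.6% of aligned coding bases were identical. Zic1 and Zic2 were the most alike at 78.6%, whereas the chromosome 14 neighbours Zic2 and Zic5 shared 71.8% and the chromosome 9 neighbours Zic1 and Zic4 75.5%. The longest run of identical coding bases between 2 members was 42, in Zic1 and Zic4, which is shorter than a read.

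**Figure D1:**
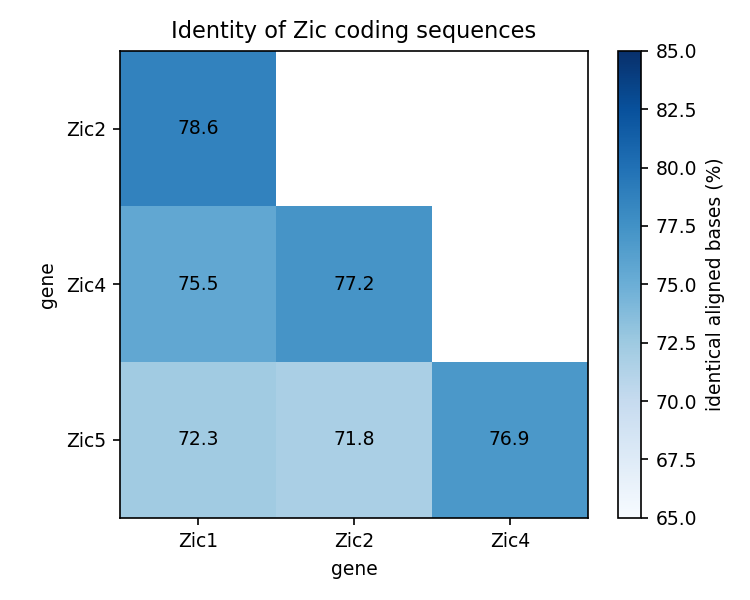
Each square gives the share of aligned coding bases, in percent, that were identical between the gene of its row and the gene of its column. The darkest square is Zic1 with Zic2 at 78.6% and the lightest is Zic2 with Zic5 at 71.8%.

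No stretch of 50 bases in any annotated transcript of Zic2 or Zic5 occurred in another of the 4 genes. For Zic1 and Zic4, 14 such stretches were common to both when either strand was matched. These 2 genes also have 60 exon bases in common on opposite strands, and how many of the 14 stretches lie there was not counted. Against all other annotated genes, 7.48% of the Zic5 stretches also occurred elsewhere, in Gm12241 and Tmem236, compared with 4.18% for Zic4, 0.723% for Zic1 and 0% for Zic2.

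TET1 acts on methylated CpG sites, so the CpG content of the Zic promoters was counted. RefSeq promoters of GRCm38.p6, 250 bases before to 50 after a start, were matched for 3 of the 4 genes, Zic1 (chr9:91365719-91366018, minus strand), Zic4 (chr9:91368722-91369021, plus strand) and Zic5 (chr14:122465609-122465908, minus strand). They are printed because the neighbours Zic1 and Zic4 differ in CpG content, with each CpG in capitals.
Zic1: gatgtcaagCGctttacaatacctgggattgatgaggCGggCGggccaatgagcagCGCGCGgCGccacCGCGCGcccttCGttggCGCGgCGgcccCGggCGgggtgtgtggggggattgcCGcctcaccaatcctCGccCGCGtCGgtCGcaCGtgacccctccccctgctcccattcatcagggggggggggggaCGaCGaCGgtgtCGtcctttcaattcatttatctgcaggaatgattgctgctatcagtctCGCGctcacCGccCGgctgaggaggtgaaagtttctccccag
Zic4: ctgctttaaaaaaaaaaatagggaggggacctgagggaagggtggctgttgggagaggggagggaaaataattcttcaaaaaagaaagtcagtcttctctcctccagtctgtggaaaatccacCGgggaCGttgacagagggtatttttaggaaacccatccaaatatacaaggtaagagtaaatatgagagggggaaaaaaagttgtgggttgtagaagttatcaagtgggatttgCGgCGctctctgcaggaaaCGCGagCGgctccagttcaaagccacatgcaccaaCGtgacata
Zic5: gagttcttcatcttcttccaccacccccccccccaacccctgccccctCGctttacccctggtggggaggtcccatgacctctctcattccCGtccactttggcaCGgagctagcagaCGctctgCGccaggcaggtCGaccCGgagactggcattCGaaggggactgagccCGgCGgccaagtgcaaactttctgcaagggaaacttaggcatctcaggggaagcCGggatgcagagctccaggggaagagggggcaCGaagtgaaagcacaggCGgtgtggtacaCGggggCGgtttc
The Zic1 promoter held 31 CpG dinucleotides and 65.3% G and C. Of 32851 promoters of this length, 89.4% held fewer. The Zic5 promoter held 15, with 62.7% G and C, and 65.4% of promoters held fewer. The Zic4 promoter held 8, with 46.0% G and C, close to the median of 7 over all promoters. This window belongs to 1 RefSeq start of Zic4, which lies 6559 bases downstream of the start of its span in the table, and the other starts of its 12 transcripts were not examined. The RefSeq starts of Zic1 and Zic5 lie 42 and 19 bases from those in the table. The order of CpG content, Zic1 over Zic5 over Zic4, was thus not the order of their RNA levels, in which Zic5 was far above the other 2. The letters CAGCAGG, a core of the known ZIC binding motif searched on both strands, were in none of the 3 windows and in 10.5% of all promoters. Methylation was not measured in these files.

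**Figure D2:**
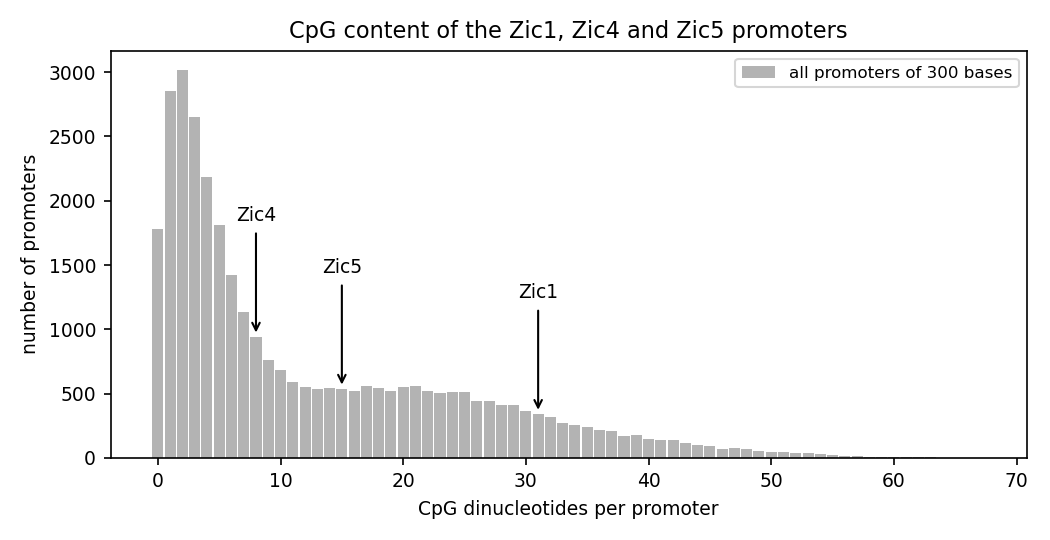
Bars give the number of RefSeq promoters of 300 bases (vertical axis) with each number of CpG dinucleotides (horizontal axis). Arrows mark Zic4 at 8, Zic5 at 15 and Zic1 at 31.

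Zic2 was among the higher genes of these cells, Zic5 lay in the middle range, and Zic1 and Zic4 rested on few reads. Levels are given as the authors' mean, which is the gene's read count divided by a size factor of each library and averaged, and as that mean per kilobase of annotated exon, the scale on which genes can be compared. Zic2 had an authors' mean of 940 and 327 per kilobase, above 90.9% of the 16922 protein-coding genes with an annotated length. Zic5 had an authors' mean of 303 and 62.0 per kilobase, above 65.1% of them, or above 52.4% of those with an authors' mean of at least 10. The median protein-coding gene lay at 24.5 per kilobase. Zic1, a factor of the dorsal neural tube and cerebellum, had an authors' mean of 3.11, or 0.546 per kilobase, above 15.0% of protein-coding genes. Zic4, with which it is expressed in the cerebellum, had an authors' mean of 1.40, or 0.136 per kilobase, above 6.77%. Its level was 0.361 per kilobase with the longest transcript as length, and its percentile was 14.1 without length.

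Of the summed level per kilobase of the 4 genes, Zic2 made up 83.9%, Zic5 15.9%, Zic1 0.140% and Zic4 0.0349%. The descending order was therefore Zic2, Zic5, Zic1 and Zic4. With no value per library, the spread between lines behind these levels is not known.

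The counting error was obtained from the smallest means in the table. These fell on 12 values that many genes shared, each the mean of a gene with 1 read in 1 library, which gave 12 libraries in the mean, 4 more than the 8 described. The count rests on values shared by at least 30 genes, and only 5 values were shared by at least 50. The reads behind a gene then lie between a smallest and a largest number, according to which libraries they came from. They were 8190 to 16631 for Zic2 and 2641 to 5363 for Zic5, against 27.1 to 55.0 for Zic1 and 12.2 to 24.8 for Zic4. If each gene had the same level in every library, Zic1 would rest on 39 reads and Zic4 on 18. The exact 95% Poisson interval of the authors' mean would then run from 2.21 to 4.25 for Zic1 and from 0.832 to 2.22 for Zic4, and from 923 to 958 for Zic2 and 294 to 313 for Zic5. These intervals cover counting error only. Those of Zic1 and Zic4 met at their ends, and those of Zic2 and Zic5 were far apart.

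**Figure D3:**
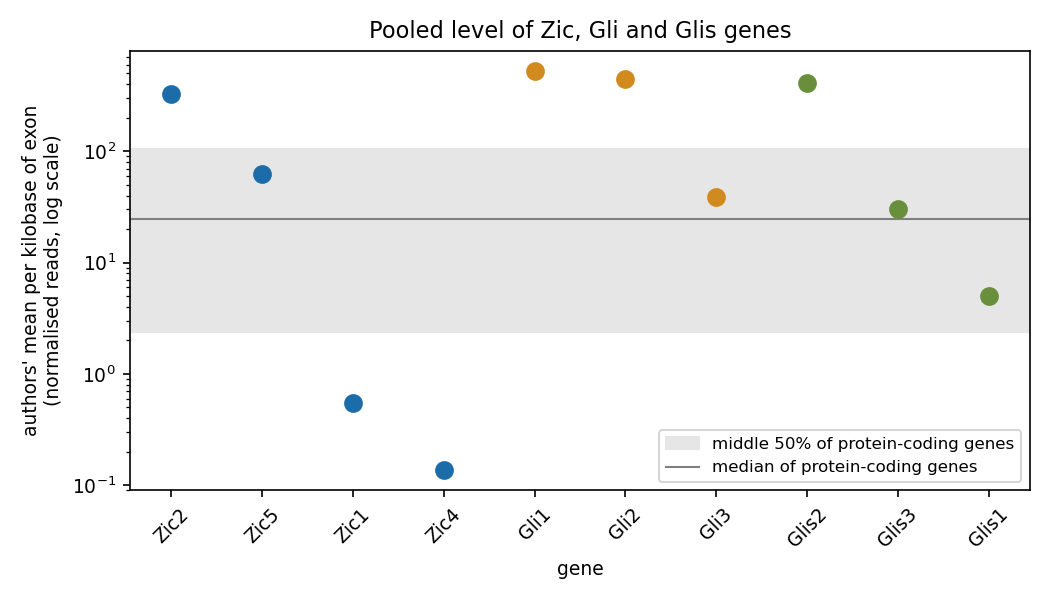
Points give the authors' mean per kilobase of exon (log scale) for the Zic genes in blue, Gli genes in orange and Glis genes in green. The band spans the middle 50% of protein-coding genes, from 2.36 to 106 per kilobase. Zic2 lies above the band, Zic5 inside it, and Zic1 and Zic4 below it.

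The coordinates of the table show both Zic2 with Zic5 and Zic1 with Zic4 as neighbours. Zic5 (chromosome 14, 122456795 to 122465677, minus strand) and Zic2 (122475435 to 122479852, plus strand) point away from each other, with 9757 bases between their spans and no exon base in common. Zic1 (chromosome 9, 91358058 to 91365810, minus strand) and Zic4 (91362413 to 91389348, plus strand) also run outward, but their spans shared 3398 bases, owing to an upstream first exon annotated for Zic4, and 60 exon bases. The promoter windows of both genes printed above are 2703 bases apart. Reads in the 60 shared bases cannot be told apart unless strand was used in counting, which is not stated. The chromosome 14 pair was thus higher than the chromosome 9 pair in both of its genes.

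Zic2 exceeded Zic5 by 5.26-fold per kilobase, with an exact binomial interval for counting error from 5.07 to 5.46. The intervals of these ratios take each gene to have the same level in every library and leave out the spread between lines. Zic1 exceeded Zic4 by 4.02-fold per kilobase, with an interval from 2.20 to 7.30. The size of this ratio rests on the 10335 exon bases annotated for Zic4 over 12 transcripts. With each gene's longest transcript as length, the Zic1 to Zic4 ratio was 1.54 with an interval from 0.840 to 2.79, which includes 1, so that their levels could not be told apart on that scale, while the Zic2 to Zic5 ratio was 6.06 (5.84 to 6.29). The chromosome 14 pair thus had the larger ratio on both lengths, and also without length, at 3.10 against 2.21. The interval of the chromosome 9 pair contained the ratio of the chromosome 14 pair on exon length and lay below it on the longest transcript. Whether the ratios of the pairs differed beyond counting error therefore depended on the length used.

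Within 250 kilobases of the chromosome 14 pair the table held 4 other genes. The nearest, Gm5089, ends 5680 bases from Zic5 and had 0.406 per kilobase, above 13.03% of protein-coding genes, against 62.0 for Zic5. Clybl, which encodes a mitochondrial citramalyl-CoA lyase, had 195 per kilobase, above 84.8% and between Zic5 and Zic2, and Pcca, a subunit of propionyl-CoA carboxylase, had 5.88, above 32.3%. The antisense RNA 1700108J01Rik had 0.172 per kilobase, from an authors' mean of 0.0833, which is the value of 1 read in 1 library. Near the chromosome 9 pair the table held 0 other genes within 250 kilobases.

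**Figure D4:**
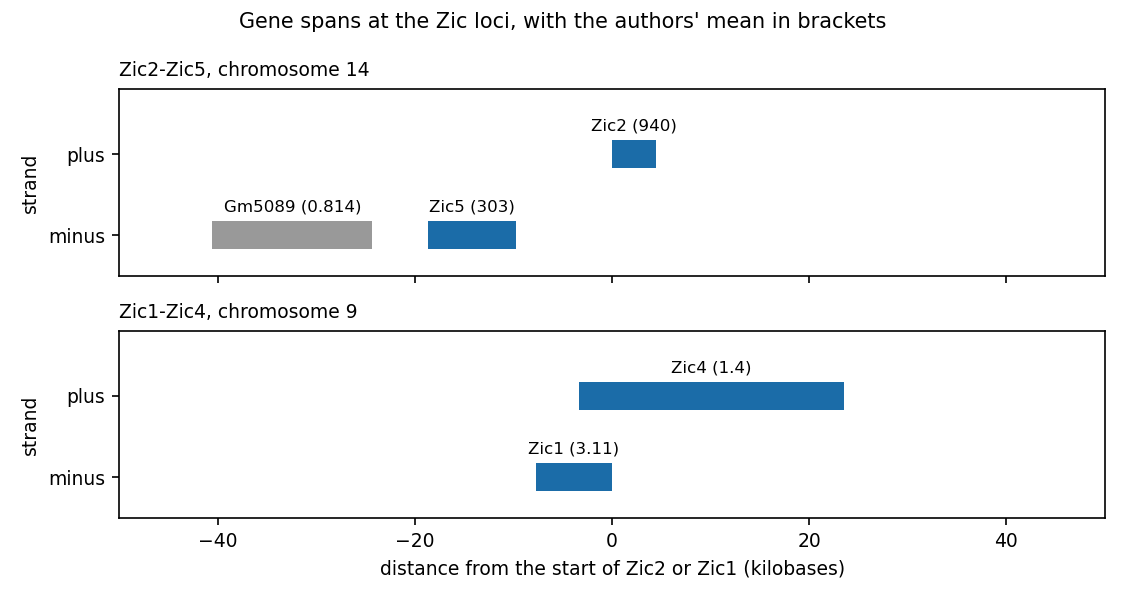
Bars are gene spans drawn to scale on the plus or minus strand (vertical axis) against the distance in kilobases from the start of Zic2 or Zic1 (horizontal axis), with the authors' mean in brackets and Zic genes in blue. Zic5 and Zic2 stand 9757 bases apart, whereas the spans of Zic1 and Zic4 overlap by 3398 bases.

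The related Gli and Glis genes lay between 4.99 and 529 per kilobase, against 0.136 to 327 for the Zic genes. Gli1, a Hedgehog target and activator, had 529 per kilobase and Gli2, the main Hedgehog activator, 447, both above Zic2. Gli3, which acts largely as a repressor, had 39.0. Glis2 lay at 412 per kilobase, also above Zic2, while Glis3 had 30.3 and Glis1 4.99. All 6 exceeded Zic1 and Zic4, and 3 of the 6 exceeded Zic2.

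The cell type was checked against marker lists on the same scale. All 8 embryonic stem cell markers lay between 520 (Zfp42) and 3817 per kilobase (Esrrb), above the 4 Zic genes, with Pou5f1 at 894, Sox2 at 1527 and Nanog at 2572. Of the 4 genes listed for cerebellar granule cells, in which Zic1 is a known defining factor, 3 were in the table. Barhl1 had 0.604 and Atoh1 0.994 per kilobase, with authors' means of 2.36 and 2.11, so that both rested on few reads. Pax3, which is not a specific marker of these cells, had 0.00914, from a mean that is the value of 1 read in 1 library. Endoderm markers lay between 2.13 and 19.7 over 4 genes and mesoderm markers between 0.902 and 38.2 over 4 genes. Of 6 neural markers 5 were in the table, between 11.5 (Nes) and 929 per kilobase (Tubb3), with Pax6 at 16.2. Of 5 fibroblast markers 4 were in the table, between 0.0554 (Col1a2) and 2021 per kilobase (Vim, which many cell types express). Their part in the Zic levels was not tested.

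A list of 14 genes was taken for the formative state that follows naive pluripotency, not all of them particular to that state. Among these 14, Zic2 was exceeded by 3, Utf1 (5903 per kilobase), Etv4 (1368) and Etv5 (620). Zic5 was exceeded by 5, the same 3 with Dnmt3b (308) and Foxd3 (273). The other 9 lay below Zic5, with Otx2, a driver of the transition, at 48.0, Lef1 at 32.2, Pou3f1 at 16.5 and Fgf5, a marker of the epiblast after implantation, at 0.336, below Zic1 and, on exon length, above Zic4.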

How the data were processed

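Per the labels and the study's methods, RNA of the 8 libraries was depleted of ribosomal RNA, sequenced as single-end reads of 50 bases, and the authors aligned them to GRCm38.p6 with STAR 2.5.3a, which also gave the gene counts. They normalised these counts with DESeq2 1.20.0, and the deposited mean is the authors' mean normalised signal over all libraries of the fit. The table's other value columns hold the authors' fold change, its standard error, statistic, p-value and adjusted p-value, and were not used. The planned test on counts per line was not run, because it needs counts per library. Of unassigned columns with values per sample there were 0.

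Means were divided by the union of annotated exons of GENCODE vM21 (GRCm38), to which 19342 of 19429 gene identifiers matched. Libraries were counted as single-read values shared by at least 30 genes and not sums of lower ones. The counting was tested on simulated data of 12 libraries and of no other number, so it does not show how other numbers would be counted. The sizes of the single-read values gave relative depths (size factors) from 0.726 to 1.47. Coding sequences were those of the transcript with the longest coding part, aligned in pairs with Biopython 1.88. Promoters are from RefSeq. Stretches of 50 bases were matched on both strands. Alternatives were other lengths, other gene sets to rank and other step sizes.

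The members and gene lists were chosen with earlier results of these data known. Named are the 4 members, the Gli and Glis genes, table genes within 250 kilobases of a member, and genes of the marker and formative lists, of which examples are given. Some planned results are not reported here. Every level is a description with no test.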

Additional observations from a re-analysis of the deposited data

Results flagged for a closer look

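The means behind the Zic levels include a signal from 4 libraries beyond the 8 that the labels and the RNA methods describe, since 12 single-read values shared by at least 30 genes were found in the table. How much of the reads of Zic1, Zic2, Zic4 and Zic5 came from those 4 libraries cannot be read from a pooled mean and was not tested. The study's general methods mention more derived lines of each genotype than the labels list, and whether these libraries came from such lines was not tested.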

How the results depend on the processing

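The order Zic2, Zic5, Zic1, Zic4 held under each length tried, but with the longest transcript Zic1 and Zic4 lay within counting error of each other. With the longest transcript as length, the level per kilobase was 385 for Zic2 and 0.361 for Zic4, the Zic2 to Zic5 ratio was 6.06 and the Zic1 to Zic4 ratio 1.54. With the number of 50-base stretches found in no other of the 4 genes as length, Zic2 had 333. These shifts follow from the shorter lengths. Without length the Zic2 to Zic5 ratio was 3.10, and the percentiles among protein-coding genes were 19.0 for Zic1, 84.9 for Zic2, 14.1 for Zic4 and 66.7 for Zic5. With the ranking limited to means of 10 or more, in which Zic1 and Zic4 have no place, they were 87.6 for Zic2 and 52.4 for Zic5, since fewer low genes were ranked. The number of libraries stayed at 12 with steps of at least 20 genes and was 5 with at least 50, since only 5 steps were that full. Identity over the shorter coding sequence ran from 66.8% to 77.9%, and 1 of the 6 pairs moved beyond its binomial interval over aligned bases. Of the 26 alternative values, 14 lay outside the interval of their main value or, for the count of libraries, changed by over 1.5-fold. For levels and ratios this interval was that of counting error. For percentiles it was a binomial interval over the ranked genes, and for identities a binomial interval over the aligned bases. Protein identity was not run. No paired analysis was possible because the table holds no values per library, and leaving out a replicate could not be done for the same reason. Depth limits Zic1 and Zic4, whose order rests on few reads.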
